A study of Mus musculus with 6 samples.

Results

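Nr3c1, which encodes the glucocorticoid receptor, and 5 genes known as its targets (Fkbp5, Tsc22d3, Sgk1, Klf9 and Zbtb16) were followed over 6 Affymetrix mouse exon arrays. They were taken by gene name, and all 6 of these genes were among the 19613 genes of the table. Each array measured a sample of embryoid bodies, aggregates grown from mouse HBG3 HB9 embryonic stem cells that had been differentiated into spinal motor neurons with retinoic acid and a hedgehog agonist. These had then been exposed to blood fluid from male carriers of strain B6CBA-Tg(HDexon1)62Gpb/3J, a mouse model of Huntington's disease with a fragment of the human huntingtin gene, sampled before symptoms. The labels call the fluid plasma and the study calls it serum; "serum" is used here. All 6 arrays belong to this group, numbered 2, 4, 5, 6, 7 and 8, and no control arrays were analysed here, so the values are levels under this serum and not responses to it. The amount of glucocorticoid in the serum or the medium is not given in the sources used here, and embryoid bodies hold other cells beside motor neurons.

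The glucocorticoid receptor waits in the cytoplasm in a complex with heat shock proteins and co-chaperones. On binding corticosterone, the main glucocorticoid of mice, it moves to the nucleus, binds DNA and switches target genes on or off. Targets shared by many tissues include feedback inhibitors of the receptor, a leucine zipper protein that restrains inflammatory signalling, a kinase and several transcription factors, and nearly all of them also answer to other signals such as serum, stress or hormones of other kinds.

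The arrays correlated with each other at a Pearson's r of 0.991 to 0.997 over all genes. Replicate 8 was the least like the others. Its lower quartile of intensity was 109, against 121 to 129 on the other arrays, and its mean r with the other arrays was 0.992, against 0.994 or 0.995. A single-array screen by Dixon's ratio found 0 of 83 sets of 6 values past the critical value, with a ratio of 0.57 for the lower quartile. Of 44 relations between the 6 genes and listed genes that had an unadjusted exact p under 0.05, 14 still had one without replicate 8, and 20 to 25 without any other single array. Olfactory receptor genes, silent in most tissues, served as the background: 95% of the 1032 on the array had a mean log2 intensity under 7.47, and genes over that level are called above background. Of 7 matched motor neuron markers, 7 were above it, as were 65.2% of all genes. In bulk samples fewer cells of a type and less RNA per cell cannot be told apart.

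The sequences around the transcription starts of the targets are shown first, and their part in the variation over the arrays (below) was not tested. RefSeq windows of GRCm38.p6, each from 250 bases before to 50 bases after a transcription start, were at hand for 4 of the 6 genes: 6 windows for Sgk1, 3 for Tsc22d3 and 1 each for Klf9 and Fkbp5. The sequence searched for was the palindromic glucocorticoid response element, the arm GNACA followed after any 3 bases by the arm TGTNC, which reads the same on both strands. Of 32851 windows, 0.475% held it. Among the windows of the 4 genes only 1 did, that of Sgk1 on the plus strand at chr10:21993640-21993939, with the match GAACAGAATGTTC at positions -188 to -176, counting the start base as 0 (capitals below). The single arm AGAACA, in either orientation, was in 19.0% of all windows, and 3 matches lay in this Sgk1 window, 2 of which overlap the palindrome. Of the other 5 Sgk1 windows, 2 held 1 arm each. In Tsc22d3 it was found once, as TGTTCT at positions -185 to -180 of the window on the minus strand at chrX:140600473-140600772 (capitals). The Klf9 window, on the plus strand at chr19:23140976-23141275, held neither of these, nor the C/EBP-ATF element TGATGNAA (3.97% of windows, on either strand), nor the GC box GGGCGG (35.7%, on either strand), and it has no capitals. Fkbp5 held 4 GC boxes and no palindrome or arm in its window. A match is a description of letters and not a bound site, and other parts of these genes were not searched.
Sgk1: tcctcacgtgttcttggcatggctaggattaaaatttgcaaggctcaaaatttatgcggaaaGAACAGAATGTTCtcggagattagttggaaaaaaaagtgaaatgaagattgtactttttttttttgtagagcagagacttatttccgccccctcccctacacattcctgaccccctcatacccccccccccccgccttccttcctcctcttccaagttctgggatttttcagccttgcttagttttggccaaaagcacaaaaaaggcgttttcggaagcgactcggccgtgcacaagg
Tsc22d3: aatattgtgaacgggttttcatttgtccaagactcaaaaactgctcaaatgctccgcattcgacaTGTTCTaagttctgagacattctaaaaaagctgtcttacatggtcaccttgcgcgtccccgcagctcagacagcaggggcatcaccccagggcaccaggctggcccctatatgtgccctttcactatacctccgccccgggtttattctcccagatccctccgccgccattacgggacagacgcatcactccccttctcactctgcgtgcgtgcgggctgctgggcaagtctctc
Klf9: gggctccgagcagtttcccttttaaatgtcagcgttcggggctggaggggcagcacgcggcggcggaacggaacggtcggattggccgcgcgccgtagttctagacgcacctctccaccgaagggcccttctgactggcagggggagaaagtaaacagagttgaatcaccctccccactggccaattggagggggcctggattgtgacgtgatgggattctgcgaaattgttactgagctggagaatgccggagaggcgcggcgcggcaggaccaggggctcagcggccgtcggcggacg

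Nr3c1, the receptor, was the member closest to background. Its log2 intensity was 7.72 ± 0.081 (mean ± SD, n = 6), from 7.62 in replicate 6 through a median of 7.71 to 7.86 in replicate 8. It lay above 7.47 on all 6 arrays, but by 0.25 on average, and it did not pass the stricter level of 8.33, under which 99% of the olfactory receptor genes lay. Its r with the lower quartile of the arrays was -0.78 (exact permutation p = 0.0875), and -0.21 without replicate 8. Replicate 8 was highest, and without it the SD was 0.052. Fkbp5, a co-chaperone that lowers the affinity of the receptor for its ligand and is itself induced by it, had a log2 intensity of 8.29 ± 0.042 (mean ± SD, n = 6), from 8.23 in replicate 2 through a median of 8.30 to 8.34 in replicate 6. It too was below the stricter background. Its highest array exceeded its lowest by 1.07-fold, and 6.25% of the 640 genes of like level had a smaller SD, so this classic target was among the steadier genes of its level.

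Tsc22d3 encodes GILZ, a leucine zipper protein that restrains inflammatory transcription factors. It had a log2 intensity of 9.33 ± 0.075 (mean ± SD, n = 6), with 9.36, 9.46, 9.32, 9.33, 9.25 and 9.26 in replicates 2, 4, 5, 6, 7 and 8. Replicate 4 was highest and replicates 7 and 8 lowest. Klf9, a zinc finger transcription factor that is also induced by thyroid hormone, had 9.36 ± 0.13 (log2 intensity, mean ± SD, n = 6), with 9.39, 9.55, 9.45, 9.33, 9.20 and 9.24 on the same arrays in that order. It was the most variable of the 6 genes for its level: its SD exceeded that of 89.1% of genes of like level, and its highest array exceeded its lowest by 1.28-fold. Again replicate 4 was highest and replicates 7 and 8 were lowest.

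Sgk1, a kinase of ion channels and transporters named for its induction by serum and glucocorticoid, had a log2 intensity of 8.47 ± 0.098 (mean ± SD, n = 6), with 8.46, 8.38, 8.39, 8.42, 8.59 and 8.60 in replicates 2, 4, 5, 6, 7 and 8. Here replicates 7 and 8 were the highest and replicate 4 the lowest, the reverse of Tsc22d3 and Klf9. Zbtb16, a zinc finger transcription factor that represses genes during development, had 8.84 ± 0.071 (log2 intensity, mean ± SD, n = 6), from 8.76 in replicate 5 through a median of 8.83 to 8.94 in replicate 8. Without replicate 8 its SD was 0.054. The SDs of Sgk1, Tsc22d3 and Zbtb16 exceeded those of 56.7%, 53.3% and 47.5% of genes of like level. All spreads can include differences between sera as well as between cultures and arrays. Intensities of different genes depend on their probes and are not set against each other.

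**Figure D1:**
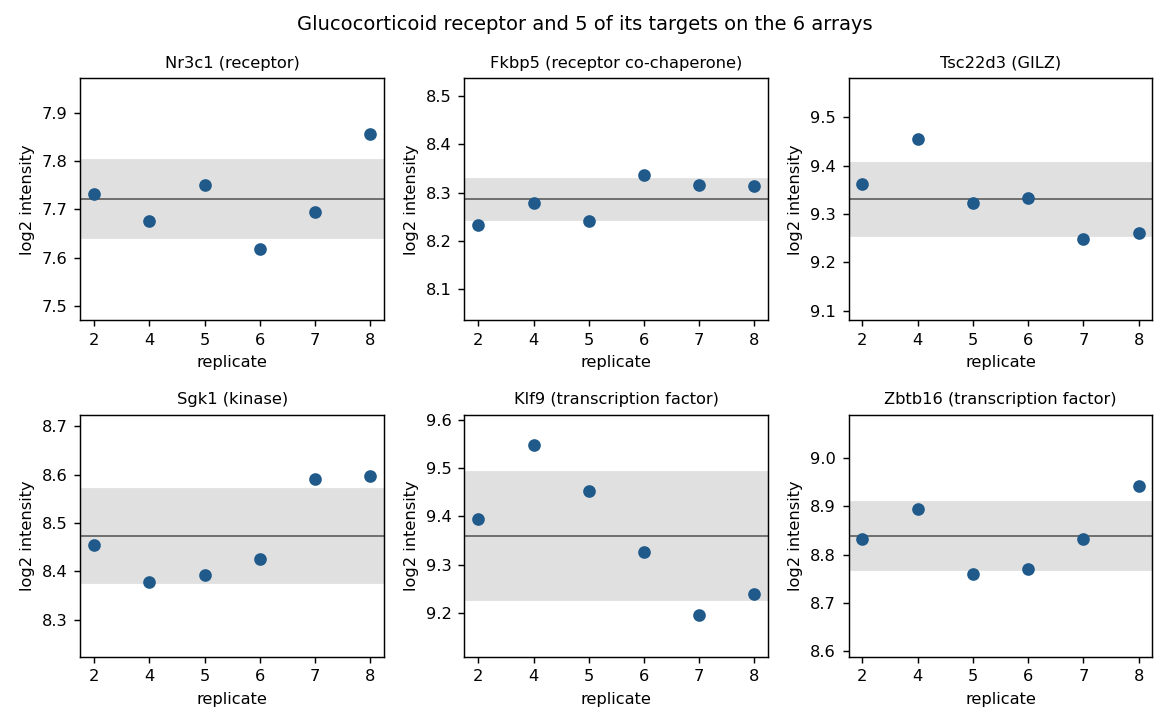
Log2 intensity (vertical axis, a window of the same height in each panel) of the 6 genes by replicate (horizontal axis); points are single arrays, the line is the mean and the grey band is 1 SD to either side, n = 6. Klf9 spans the widest range, from 9.20 to 9.55, and Fkbp5 the narrowest, from 8.23 to 8.34.

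The next question was whether the receptor and its targets varied together. Of the 15 pairs among the 6 genes, 3 had an unadjusted p under 0.05 by the two-sided exact permutation test of Pearson's r, against 8.64% of the relations of these genes with other genes above background. Those 3 pairs were the ones among Tsc22d3, Klf9 and Sgk1, so they share genes and are not separate observations. No pair passed after adjustment over all 76749 relations tested, where the smallest adjusted p by the exact permutation test was 0.319 and 6633 relations had an unadjusted p under 0.05. That is the adjusted value of a relation at 0.00139, the smallest exact permutation p that 6 arrays allow. So no pair could have passed, and the adjusted values decide nothing about single pairs. Over the 15 pairs r was above 0 in 7 and below 0 in 8, with a median of -0.13, beside a median of -0.00050 over all pairs of genes above background. The 6 genes did not vary as 1 block.

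Tsc22d3 and Klf9 were high and low on the same arrays. Their r was 0.92 (exact permutation p = 0.0125, adjusted p = 0.443) and their Spearman's rho was 0.83 (exact permutation p = 0.0583, adjusted p = 0.657). Leaving out replicates 4 and 7, the 2 arrays with the most extreme Tsc22d3 levels, gave an r of 0.72, and with any 1 array left out it lay between 0.84 and 0.996. Of all genes above background, 1.21% had an r with Tsc22d3 at least as far from 0, and 1.5% had one with Klf9. An unadjusted exact p under 0.05 was found for 5.15% of genes with Tsc22d3 and for 5.89% with Klf9. The p rose to 0.108, 0.0583 and 0.0667 by the exact permutation test without replicates 4, 7 and 8.

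Sgk1 ran against both. With Klf9 its r was -0.91 (exact permutation p = 0.0167, adjusted p = 0.468) and its rho -0.89 (exact permutation p = 0.0333, adjusted p = 0.595). With Tsc22d3 its r was -0.83 (exact permutation p = 0.0347, adjusted p = 0.530) and its rho -0.71 (exact permutation p = 0.136, adjusted p = 0.768). Without the 2 farthest arrays r was -0.76 with Klf9, where replicates 7 and 8 were left out, and -0.78 with Tsc22d3, where replicates 4 and 7 were. For Sgk1, replicates 7 and 8 (8.59 and 8.60) lay apart from the other 4 arrays (8.38 to 8.46), which are too few for a test of their own, so its relations rest in part on that gap. Related to Sgk1 by the same test were 7.21% of genes. The palindromic element printed above was in 1 of 6 Sgk1 windows and in none of the 3 windows of Tsc22d3 or the 1 window of Klf9. Any link between the element and these relations was not tested. Both relations were weaker when each array was centred on its median, at -0.73 with Klf9 (exact permutation p = 0.103) and -0.52 with Tsc22d3 (exact permutation p = 0.294), whereas the r of Tsc22d3 with Klf9 was 0.89 there (exact permutation p = 0.0292). With 1 array left out, an unadjusted exact p under 0.05 was found for Sgk1 with Klf9 only without replicate 6 or 8, and for Sgk1 with Tsc22d3 only without replicate 2 or 5.

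**Figure D2:**
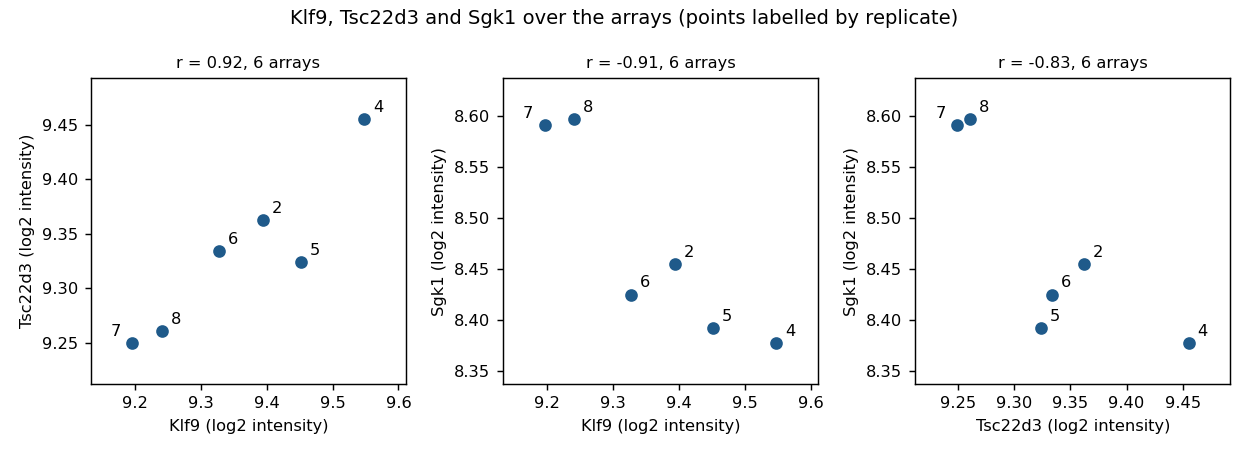
Scatter of log2 intensities for the 3 pairs with an unadjusted exact p under 0.05; each point is 1 array with its replicate number, and r is Pearson's r over 6 arrays. Klf9 and Tsc22d3 lie along a rising line (0.92), while Sgk1 is high in replicates 7 and 8, where both are low (-0.91 and -0.83).

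The level of the receptor did not pass the test with any target. Pearson's r of Nr3c1 was 0.58 with Zbtb16, 0.52 with Sgk1, -0.23 with Fkbp5, -0.26 with Klf9 and -0.43 with Tsc22d3 (exact permutation p of 0.222, 0.312, 0.692, 0.649 and 0.378), while 10.2% of other genes had an unadjusted exact p under 0.05 with it. The positive values rest on replicate 8: without it r was -0.030 with Zbtb16 and 0.016 with Sgk1, and the share of genes related to Nr3c1 was 4.72%. Fkbp5 had r between -0.60 with Klf9 and 0.47 with Sgk1 over its 5 pairs, none with an unadjusted exact p under 0.05, and 5.22% of genes were related to it.

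Tsc22d3, Klf9 and Sgk1 were next set beside the integrated stress response, the ATF4 program that cells switch on when amino acids or protein folding fail and, whose genes the study examined in these cells. With Klf9, all 8 listed genes of that program had an r above 0, with a median of 0.79 beside 0.054 over all genes, and 3 of 8 had an unadjusted exact p under 0.05 (background 3.09% in that direction). With Tsc22d3 the 8 of 8 genes also had an r above 0, with a median of 0.74 beside 0.034, and 2 of 8 passed (background 2.94%). With Sgk1 0 of 8 had an r above 0, with a median of -0.76 beside -0.059, and 2 of 8 passed below 0 (background 3.03%). The other members also had mostly 1 sign with this list. The medians were -0.65 with Fkbp5, -0.37 with Nr3c1 and -0.33 with Zbtb16, beside -0.043, 0.058 and 0.10 over all genes. Of the 8 genes, 1, 1 and 0 had an r above 0 with them. Without replicate 8 these medians were -0.61, 0.28 and 0.21. The genes of this list vary together themselves, so their counts are not independent, and all members share the same 6 arrays.

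Trib3, a pseudokinase induced by ATF4, had the same order of arrays as Klf9, with an r of 0.98 (exact permutation p = 0.00139, the smallest that 6 arrays allow, adjusted p = 0.319), and its r with Tsc22d3 was 0.90. Atf3, a stress-induced transcription factor, had an r of 0.93 with Tsc22d3 and 0.91 with Klf9. Chac1, an enzyme that degrades glutathione, ran in exactly the reverse order of Sgk1, with an r of -0.92 and a rho of -1. Psat1, of serine synthesis, had an r of -0.93 with Sgk1 and 0.86 with Klf9. The regulators of the program were less close: Atf4 had an r of 0.58 with Tsc22d3, 0.36 with Klf9 and -0.44 with Sgk1, and Ddit3, a transcription factor downstream of ATF4, had 0.60, 0.81 and -0.74. None of these 6 values had an unadjusted exact p under 0.05. Outside these 3 targets, Ddit3 had an r of -0.90 with Fkbp5 and Atf4 had -0.84 with Nr3c1 (exact permutation p of 0.0347 and 0.0236, and of 0.0667 and 0.0917 without replicate 8). Under median centring that of Atf4 with Nr3c1 was -0.62 (exact permutation p = 0.188). Of the values of Trib3, Atf3, Chac1 and Psat1 given above, those of Trib3 with Klf9, Atf3 with Tsc22d3 and Chac1 with Sgk1 kept an unadjusted exact p under 0.05 without replicate 8. Without replicate 4, where Tsc22d3 and Klf9 were highest, those of Trib3 and Psat1 with Klf9 and of Chac1 with Sgk1 kept one. With Tsc22d3 0 of 8 genes then passed, and the r of Atf4 with Klf9 turned to -0.22. Without replicate 8 the medians over the 8 genes were 0.83 with Klf9, 0.71 with Tsc22d3 and -0.72 with Sgk1. Without replicate 4 they were 0.84, 0.76 and -0.72, and under median centring 0.77, 0.61 and -0.65.

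**Figure D3:**
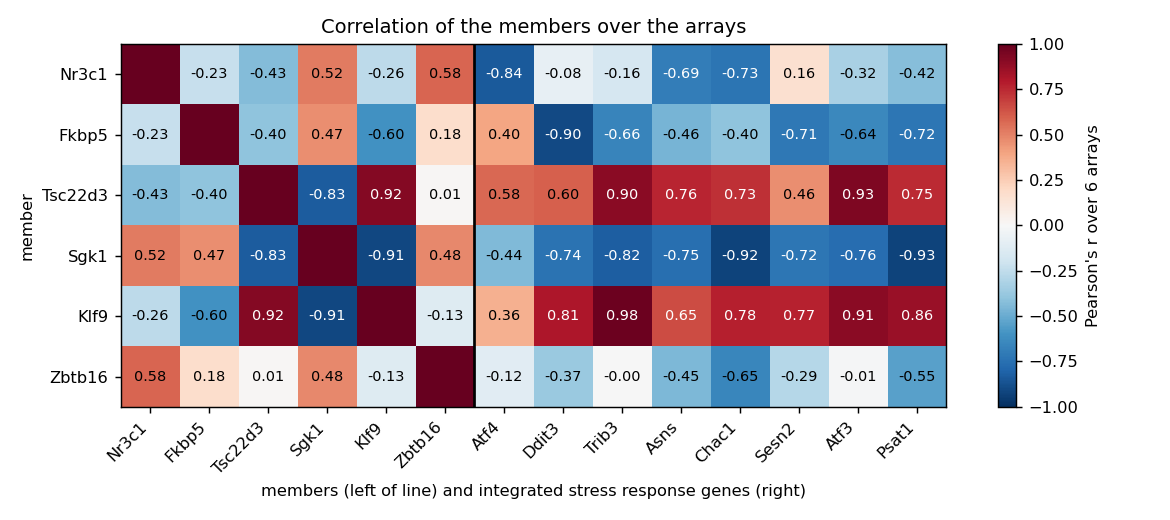
Pearson's r over 6 arrays (colour, from -1 in blue to 1 in red, with values printed) between each of the 6 genes (rows) and the same 6 genes (left of the line) or 8 genes of the integrated stress response (right). The rows of Tsc22d3 and Klf9 are red to the right of the line and that of Sgk1 is blue, with medians of 0.74, 0.79 and -0.76 over the 8 genes. The row of Fkbp5 is also blue there except at Atf4, with a median of -0.65.

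Of 7 matched markers of motor neurons, 2 were related to the same targets, where 7.21%, 5.15% and 5.89% of all genes were related to Sgk1, Tsc22d3 and Klf9. Isl1, a motor neuron transcription factor, had an r of 0.96 with Sgk1, -0.84 with Tsc22d3 and -0.83 with Klf9. Slc5a7, the choline transporter of cholinergic neurons, had 0.92, -0.95 and -0.89. No adjusted p passed, as with 6 arrays none could, and all 6 of these values had an unadjusted exact p under 0.05. Without replicate 8, only Isl1 with Sgk1 and Slc5a7 with Tsc22d3 had one, and under median centring only the 2 values with Sgk1 did. The other 5 of the 7 matched markers (Mnx1, Isl2, Lhx3, Olig2 and Chat) had none with these 3 targets, and their signs differed: Lhx3 and Olig2 had r of -0.80 and -0.69 with Sgk1 and of 0.57 and 0.48 with Klf9, opposite to Isl1. The median r of the 7 was 0.17 with Sgk1, -0.24 with Tsc22d3 and -0.035 with Klf9, and the mean level of 4 motor neuron transcription factors (Isl1, Lhx3, Mnx1 and Olig2) had an r of -0.19 with Sgk1, 0.15 with Klf9 and -0.18 with Tsc22d3. The mean of the 7 markers ranged from 9.10 to 9.28 on the log2 scale over the arrays. With Nr3c1, 1 of the 7 passed, where 10.2% of all genes did: Mnx1, at 0.87 (exact permutation p = 0.00833). Without replicate 8 Mnx1 had 0.73 (exact permutation p = 0.183). The median r of the 7 with Nr3c1 was 0.61, beside 0.058 over all genes, and 0.13 without replicate 8. The part of these markers in the variation of the 6 genes was not tested.

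Zbtb16 passed the test with none of the other 5 genes, but it did with a measure of the arrays. Its r with the lower quartile of intensity of each array was -0.90 (exact permutation p = 0.00972, adjusted p = 0.426), with a rho of -0.83 (exact permutation p = 0.0583). Without replicate 8 r was -0.79 (exact permutation p = 0.158), and it was -0.76 without replicates 5 and 8, the arrays with its most extreme levels. It was related to 18.2% of genes above background, more than any other of the 6 genes, and for 11.6% of genes the relation was negative. Without replicate 8 the share was 5.79%. In limma with the level of Zbtb16 as covariate, 356 genes passed an adjusted p of 0.05, 13 of them with a positive slope, whereas 0 genes passed with each of the other 5 members, for which 557 to 1908 genes had an unadjusted p under 0.05. Collagen genes and other markers of mesenchymal cells were among the genes that ran against it: Col1a1 had an r of -0.96, Col3a1 -0.94 and Dcn -0.84, which are 3 of the 3 such markers above background of 4 listed, with Lum below it. The mean of these 4 markers ranged from 8.51 to 8.81. Without replicate 8 the median r of the 3 was -0.92, and 2 of the 3 had an unadjusted exact p under 0.05. Under median centring the r of Dcn was -0.43, and it had none. The 2 of 4 microglia markers above background, Itgam and Csf1r, had r of -0.95 and -0.82 with Zbtb16, with Aif1 and Cx3cr1 below background, and the mean of the 4 ranged from 7.29 to 7.49. Without replicate 8 these r were -0.94 and -0.59, and only that of Itgam had an unadjusted exact p under 0.05. Itgam, Csf1r and Col3a1, at mean log2 intensities of 8.05, 7.74 and 8.27, lay under the stricter background level of 8.33. Each was lowest in replicate 8. Markers of other cell types did not all go this way. With Zbtb16 0 of the 3 astrocyte markers above background passed, with a median r of -0.25. The 1 endothelial marker above background had an r of 0.27 with it, and 0 of 3 matched blood markers were above background. The part of array quality or of other cells in the level of Zbtb16 was not tested.

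**Figure D4:**
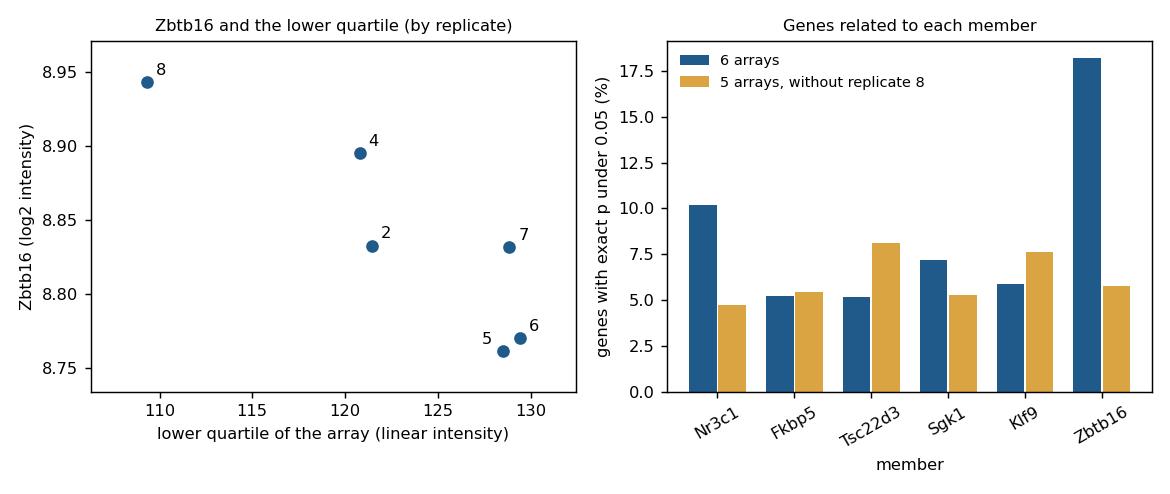
Left, log2 intensity of Zbtb16 (vertical axis) against the lower quartile of linear intensity of each array (horizontal axis), 1 point per array with its replicate number; right, percent of genes above background with an unadjusted exact p under 0.05 for their r with each of the 6 genes, over 6 arrays (blue) and without replicate 8 (yellow), as bars from 0. Zbtb16 is highest in replicate 8, at 8.94, and its share drops from 18.2% to 5.79% without that array.

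Genes of the wider machinery of the receptor were above background, as were 65.2% of all genes. All 8 matched genes of its chaperone complex were above background, with SDs of 0.021 to 0.087 on the log2 scale, beside a median SD of 0.076 over all genes above background. Hsp90aa1, a heat shock protein that holds the receptor, and Ptges3, the co-chaperone known as p23, had an r of 0.87 and 0.88 with Fkbp5, and Bag1 had -0.85. So 2 of the 8 passed above 0 with Fkbp5 and 1 below 0, where 5.22% of all genes passed in either direction. Fkbp4, the co-chaperone that competes with the product of Fkbp5, had 0.88 with Klf9. All 10 coregulators were above background, with SDs of 0.019 to 0.055. The coactivators Ncoa2 and Ncoa3 had an r of 0.97 and 0.94 with Zbtb16, so 2 of the 10 passed with it, where 18.2% of all genes did. Smarca4, an ATPase that remodels chromatin, had 0.90 with Sgk1, -0.82 with Tsc22d3 and -0.86 with Klf9. With Nr3c1 0 of these 18 genes had an unadjusted exact p under 0.05, where 10.2% of all genes did, too few genes to tell apart from that share. Of the named pairs, only Fkbp4 with Klf9, Ncoa2 with Zbtb16 and Smarca4 with Klf9 kept an unadjusted exact p under 0.05 without replicate 8. Under median centring, of the named pairs only Hsp90aa1 with Fkbp5, Ncoa2 and Ncoa3 with Zbtb16 and Smarca4 with Sgk1 kept one. Over the 10 coregulators, 4 passed with Zbtb16 under that centring, where 25.4% of all genes did. With Nr3c1 1 of the 10 then passed, where 16.9% of all genes did. Under the same centring the r of Bag1 with Fkbp5 was -0.25 and that of Smarca4 with Tsc22d3 was -0.39.

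Of 7 genes that handle the ligand, 4 were above background, beside 65.2% of all genes, a share from which so few genes cannot be told apart. Hsd11b1, the enzyme that regenerates active glucocorticoid, Abcb1b, an efflux pump, and Serpina6, the globulin that carries corticosteroid, were below background, at log2 intensities of 6.02, 6.30 and 5.498. Hsd11b2, the enzyme that inactivates corticosterone, was just above it at 7.74 ± 0.094 (mean ± SD, n = 6). Its r was 0.91 with Sgk1, -0.92 with Klf9 and -0.88 with Tsc22d3, each with an unadjusted exact p under 0.05, and its lowest array lay at 7.65. H6pd, which supplies Hsd11b1 with its cofactor, and Abcb1a, another efflux pump, had r of -0.94 and -0.90 with Zbtb16. Abcb1a also had -0.85 with Nr3c1. Without replicate 8 none of these 3 values had an unadjusted exact p under 0.05 (r of -0.89, -0.77 and -0.56), and of those of Hsd11b2 only that with Klf9 did, at -0.91. Under median centring all of these values but that of Hsd11b2 with Tsc22d3 (-0.65) had one. H6pd and Abcb1a, at mean log2 intensities of 8.26 and 7.74, lay under the stricter background level of 8.33. Srd5a1, a steroid reductase, was above background at a log2 intensity of 8.20 and passed with none of the 6 genes.

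Of 30 other known targets matched in the table, 19 were above background, a share like the 65.2% of all genes. Those below it were Bcl6, Angptl4, Pdk4, Plekhf1, Fbxo32, Trim63, Anxa1, Lcn2, Tat, Mertk and Gjb6, many of them used in liver, muscle or glia. With Nr3c1, 1 of the 19 had an unadjusted exact p under 0.05 above 0 (Dusp1, a phosphatase of MAP kinases, r = 0.83). Below 0 there were 2 (Errfi1, an inhibitor of the EGF receptor, at -0.88, and Pck1, of glucose synthesis, at -0.86). Of the 12787 genes tested with Nr3c1, 735 passed above 0 and 565 below 0, or 10.2% in either direction. The median r of the 19 with Nr3c1 was -0.46, beside 0.058 over all genes, and without replicate 8 it was -0.42. Without that array Dusp1 had an r of 0.61 and Pck1 of -0.56, neither with an unadjusted exact p under 0.05, and Errfi1 had -0.95 and kept one. Under median centring Dusp1 and Pck1 kept one, and Errfi1, at -0.65, did not. Per1, a clock gene with glucocorticoid response elements, had a log2 intensity of 9.15 ± 0.047 (mean ± SD, n = 6) and an r of 0.95 with Tsc22d3. It was the only one of the 19 that passed above 0 with Tsc22d3, where 2.94% of all genes did, and 1 of 19 cannot be told apart from that share. Without replicate 4 its r was 0.91 (exact permutation p = 0.0583), and without any other single array it kept an unadjusted exact p under 0.05. Cdkn1c, a cell cycle inhibitor, had an r of 0.90 with Fkbp5, and Nfkbia, an inhibitor of NF-kappaB, had -0.86. Fam107a and Arrdc2 had -0.89 each with Zbtb16, so 2 of the 19 passed with it, where 18.2% of all genes did. Without replicate 8 none of these 4 values with Fkbp5 and Zbtb16 had an unadjusted exact p under 0.05. Under median centring the r of Nfkbia with Fkbp5 was -0.12, and those of Cdkn1c, Fam107a and Arrdc2 kept one. Fam107a and Pck1, at mean log2 intensities of 7.94 and 7.80, lay under the stricter background level of 8.33. With Klf9 and with Sgk1 0 of the 19 passed by the exact permutation test, where 5.89% and 7.21% of all genes did, so that 0 of 19 cannot be told apart from these shares.

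Genes most like each member were taken from the whole table by r over the 6 arrays, which among so many genes yields values near 1 for any gene. For Nr3c1 they were Dpy30, Pdgfa and Actl6a, with r of 0.99 to 0.996, and for Fkbp5 Jup, Snapc2 and Wdr34, at 0.99 each. For Tsc22d3 they were Cln8, Lonrf3 and Atf5, at 0.99 to 0.996, where Atf5 is a transcription factor of the stress response. For Sgk1 they were Snrpn, Chst15 and Plxna4, at 0.99 each, for Klf9 Mri1, Scpep1 and Dusp16, at 0.99 each, and for Zbtb16 Fam98a, Cwf19l2 and Vps54, at 0.99 each.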

How the data were processed

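Affymetrix mouse exon arrays were summarised by the authors to gene-level intensities, deposited on a linear scale. The methods describe RMA with Aroma Affymetrix and an average across the annotated exons of each gene, so isoforms are not separated, and the processing notes also name Affymetrix Expression Console. The study removed outlying arrays. In a later step it corrected gene levels for batches of neurons, as log2 ratios to levels predicted from Olig2, Mnx1, Isl1 and Lhx3. The linear model behind the predictions was fitted on cultures given non-carrier serum. The corrected values are not used here, and whether these 6 arrays had passed the outlier screen is not stated. Assays were run in groups, each with its own batch of neurons, but the batch of each array is not given in the sources used here, so none could be examined. The genome build of the annotation is not given either. The table held 0 columns of other samples.

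Here the deposited intensities were put on the log2 scale without a pseudocount (Python 3.11.15, numpy 2.4.6, pandas 2.3.3). Genes above background numbered 12793. Correlations were tested over all 720 orderings of the arrays, with Benjamini-Hochberg adjustment over 76749 relations: 15 pairs of members, members against the other genes above background, and 12 relations with the motor neuron mean and the lower quartile. limma 3.58.1 (R 4.3.3) was an alternative, and the others were median centring, quantile normalization, Spearman's rho, linear intensities, the background level, no filter and leaving out each array. The exact test was checked on simulated data. Genes of like level shared 1 of 20 bins of mean level. Separate cultures are not stated in the labels, so p-values measure the spread between these samples, which may be technical, and the number of arrays limits the precision.

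Named genes were the 6 members, listed receptor, coregulator, ligand and target genes with an unadjusted exact p under 0.05 (at most 6 per list) or below background, Atf4, Ddit3, 4 motor neuron genes, marker genes below background and the 3 most correlated genes of each member. Trib3, Atf3, Chac1, Psat1, Isl2, Chat, Slc5a7, Srd5a1, Nfkbia, Pck1, Col1a1, Col3a1, Dcn, Itgam and Csf1r fall outside this rule and were chosen after their values were seen. The members and lists were chosen with earlier results of these data known.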

Additional observations from a re-analysis of the deposited data

How the results depend on the processing

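Counts of member pairs with an unadjusted p under 0.05 were 3 over the 6 arrays, 1 under median centring, 1 by Spearman's rho, 3 under quantile normalization and on linear intensities, and 0 to 2 with 1 array left out (0 without replicate 4 or 7, 1 without replicate 8). With 5 arrays the smallest exact permutation p is 0.00833. Tsc22d3 with Klf9 kept a positive r and Sgk1 kept a negative r with both under every alternative run. The r of Nr3c1 with Fkbp5 turned from -0.23 to 0.30 under median centring, 0.18 under quantile normalization and 0.21 without replicate 6, with a range of -0.87 to 0.21 over the arrays left out. With Klf9 it turned from -0.26 to 0.20 without replicate 8 (range -0.45 to 0.20), and with Zbtb16 from 0.58 to -0.030 without replicate 8 (range -0.030 to 0.82). The cause was not tested. All 6 members were above the 95th percentile background and 4 above the 99th, where Nr3c1 and Fkbp5 fell short.

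The number of genes related to a member moved more. For Nr3c1 it was 1300, against 2160 under median centring, 646 by Spearman's rho, 2010 with no filter on low values and 530 to 1504 with 1 array left out (829, 530, 824 and 604 without replicates 2, 6, 7 and 8). For Zbtb16 it was 2329, against 1472 by Spearman's rho, 1253 with the stricter background, 3913 with no filter and 741 to 2032 with 1 array left out (741 without replicate 8 and 1435 without replicate 6). For Fkbp5 it was 667, against 1067 under median centring and 288 to 699 with 1 array left out (288 and 386 without replicates 6 and 7). For Tsc22d3 it was 658, against 400 by Spearman's rho and 266 to 1037 with 1 array left out (266, 390 and 1037 without replicates 4, 7 and 8). For Klf9 it was 753, against 480 under median centring and 426 to 978 with 1 array left out (426 without replicate 7). For Sgk1 it stayed within 1.5 times of 922 under all alternatives, at 676 to 788 with 1 array left out. A filter changes these counts in part by testing fewer or more genes. Nr3c1 and Fkbp5 are the members nearest to background.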
